A study of Mus musculus with 16 samples.

Results

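Immunoglobulin heavy and light chain genes were examined on 16 mouse oligonucleotide arrays, 1 array per sample, as 75 probe sets of the 12422 tested. A probe set was a member when all of its annotated gene symbols lay in the heavy (Igh), kappa (Igk) or lambda (Igl) loci. Of 79 probe sets with such a symbol, 1 was left out because it also named a gene outside these loci, 1 because it measured Ighd, the constant region of IgD, and 2 because they measured Igll1, a surrogate light chain that is not assembled by rearrangement. The 75 members fell into 9 heavy variable, 27 heavy constant, 35 kappa and 2 lambda probe sets, with 2 more carrying heavy symbols of both kinds. A single symbol was annotated for 63 of them and several for 12, and the latter are named by probe set and class only.

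The 6 groups were sorted wild-type or cultured lymphocytes and form 3 pairs of an innate-like and an adaptive population. B1 cells came from the peritoneal cavity (high IgM, intermediate IgD, CD11b+, n = 2) and B2 cells from the spleen (intermediate IgM, high IgD, CD11b-, n = 2), both of C57BL/6 mice. NKT cells (CD3+CD4+NK1.1+, n = 3) and CD4 T cells without NK1.1 (CD4T, n = 3) were both sorted from the spleen of the same strain. CD8aaT cells (TCRb+CD8a+CD8b-, n = 3) and CD8abT cells (TCRb+CD8a+CD8b+, n = 3) were obtained from RTOC, an abbreviation that the labels do not spell out, with the agonist Smcy at 10 mM and 100 nM as the labels state them. About 50000 cells of each RTOC sample and 100000 of every other sample were sorted, and RNA was amplified before labelling. The series calls its replicates biological but does not name the animals, and p-values therefore reflect only how far these samples spread. Subset and organ cannot be told apart in the B cell pair, because the B1 cells were peritoneal and the B2 cells splenic. Surface IgM and IgD were also part of the sort gate, so levels of Ighm and Ighd are a description of the gate as much as of the subset.

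An antibody is built from 2 identical heavy and 2 identical light chains, and each chain joins a variable domain, assembled from V and J segments (and D segments in the heavy chain), to a constant region. In a B cell the heavy constant gene sets the isotype, with Ighm giving IgM, Ighg3 giving IgG3 and Igha giving IgA, while the light chain is kappa or lambda. B1 cells are known for natural IgM and for a repertoire with recurrent variable segments, and B2 cells of the spleen for a broad repertoire. Segments of one family are close in sequence and cross-hybridize, so a probe set reports a group of related transcripts and its symbol is a label of the design. The platform marks 33 members with the suffix f, which stands for a sequence family, 17 of them kappa. Neighbouring members are therefore not independent of each other, and 3 members were even designed on 1 sequence record (92740_at and 92741_g_at for Ighv14-2 and 100583_at for Igha).

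The deposited intensities were linear. Array medians ran from 30.4 to 76.2 and were close within a pair of groups and apart between pairs, so levels are compared directly only within a pair. Between B and T cells the comparison uses log2 values after quantile normalization and the percentile, the place of a probe set among the 12422 of its own array. The median percentile of 9 B cell markers was 96.9 to 97.3 in B2 and 93.3 in B1, against 64.7 to 75.5 on the splenic T cell arrays and 36.7 to 69.0 on the RTOC arrays. Within the B cell pair these markers summed to intensities of 14143 to 15196 in B2 and 13045 to 14042 in B1. In the same order, 6 T cell markers summed to 966 to 1487 and 2259 to 2640, and 11 macrophage markers to 777 to 781 and 858 to 1038. The T cell list included Cd5 and the macrophage list Itgam, the gene of CD11b, for which B1 cells were gated. The sums are therefore not a measure of other cell types alone, and the share of each gene was not tested. Replicates 2 and 3 were closer to each other than to replicate 1 in CD4T and NKT cells (SD of the log2 difference 0.162 and 0.126, against 0.383 to 0.634), and whether they are independent there is not known. Replicate 1 had a higher 18S ribosomal RNA signal than replicate 2 in both B cell groups (411 against 107 in B2, 306 against 58.7 in B1).

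Between B1 and B2 cells, 4 of 75 immunoglobulin probe sets were called by limma with Benjamini-Hochberg adjustment over all probe sets, 3 lower and 1 higher in B1. The 3 lower were all probe sets of Ighv14-2, a heavy variable segment, and the higher one measured Ighg3. Over all probe sets 142 were called, which is 1.14%, with 44 lower (0.354%) and 98 higher (0.789%). No kappa, lambda or mixed probe set passed the test. The median difference of the members was -0.09 on the log2 scale, beside -0.05 over all probe sets, and 53 of the members lay below 0, or 70.7% against 62.8% of all probe sets.

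**Figure D1:**
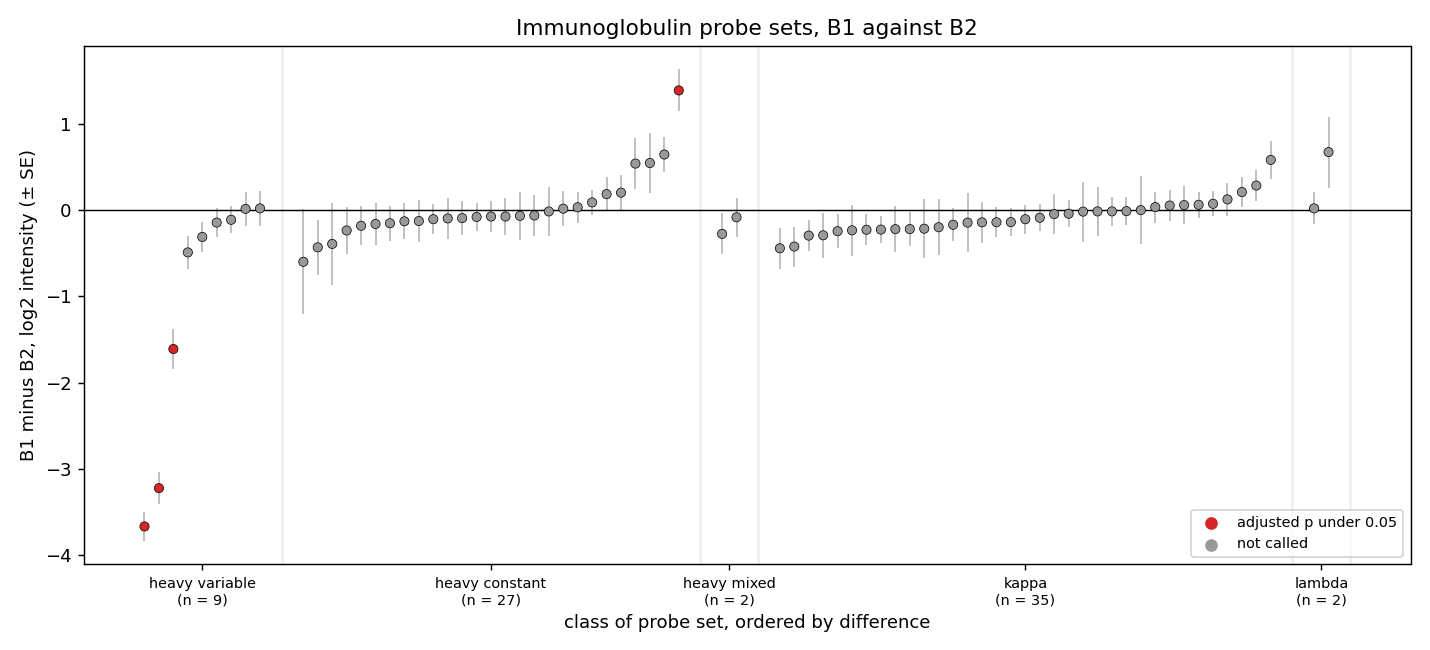
Difference between B1 and B2 (B1 minus B2, log2 intensity, bars 1 SE of the limma fit) for each of the 75 immunoglobulin probe sets, grouped by class and ordered within it. Red points were called at an adjusted p under 0.05. The 3 Ighv14-2 probe sets stand at -3.67, -3.22 and -1.61 and the called Ighg3 probe set at 1.39, while kappa probe sets run from -0.44 to 0.58.

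The heavy variable segment Ighv14-2 fell in B1 cells on all of its single-symbol probe sets. Probe set 92740_at read 360.7 and 406.1 on the B2 arrays and 30.7 and 29.6 on the B1 arrays. The groups lay far apart, with a difference of -3.67 ± 0.17 (log2, SE, n = 2 and 2), 12.7-fold lower in B1 (limma adjusted p = 4.9e-08). Its T cell values were 7.4 to 12.4, on arrays of lower median intensity, and the comparison with T cells is made by percentile below.

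Probe set 98974_at of the same segment read 507.8 and 672.5 in B2 and 53.0 and 73.9 in B1. It was 9.34-fold lower in B1 (-3.22 ± 0.18, limma adjusted p = 5e-07), again with no overlap between the groups. Within each array it stood at percentile 92.7 and 94.9 in B2, 39.2 to 51.7 in B1 and at most 16.6 on the T cell arrays. The first probe set showed the same order, at percentile 88.7 to 90.2 in B2, 23.0 to 24.9 in B1 and at most 8.6 in T cells. The B1 cells thus read between the B2 and the T cell arrays on both probe sets.

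The third Ighv14-2 probe set, 92741_g_at, read 261.1 and 362.8 in B2 and 89.6 and 113.3 in B1, a 3.05-fold lower level (-1.61 ± 0.24, limma adjusted p = 0.0021). Its suffix g marks probes shared by a group of genes, and it gave a smaller difference than 92740_at, designed on the same record. This call was lost when the arrays of B1 and B2 were fitted alone (adjusted p = 0.098) and without B2 replicate 2 (0.056), whereas the other two Ighv14-2 calls held in all 25 alternatives of the fit. The mixed probe set 99421_at, whose symbols include a heavy variable and 3 constant genes, read 158.9 and 178.7 in B2 and 175.2 and 144.3 in B1, so its arrays overlapped.

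**Figure D2:**
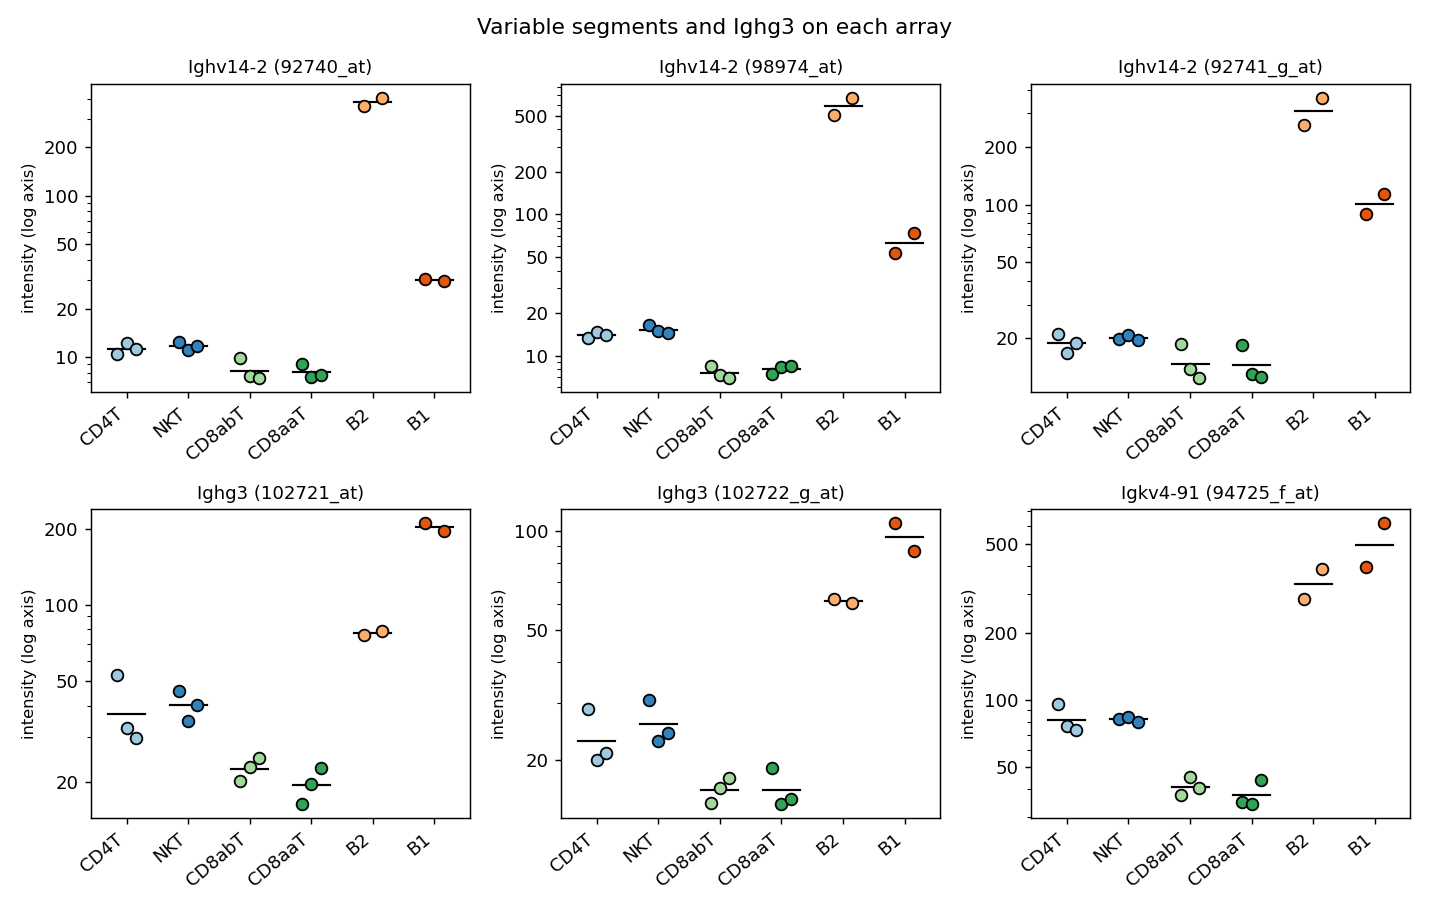
Deposited intensity (log axis) of 6 probe sets on each of the 16 arrays, with points for arrays and a line for the group's mean log2 value. The Ighv14-2 panels show B2 above B1 above all T cell arrays, the Ighg3 panels show B1 above B2, and on Igkv4-91 both B1 arrays, at 393.1 and 618.4, lie above the B2 arrays at 282.3 and 384.9. Intensities are comparable directly only within a pair of groups.

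The other 6 heavy variable probe sets moved little. Igh-VS107, named after the S107 family of segments that includes antibodies to phosphocholine, read 346.3 and 355.2 in B2 and 277.7 and 224.2 in B1 on probe set 102152_f_at (-0.49 ± 0.19, adjusted p = 0.66). The B1 arrays lay below the B2 arrays without the difference passing the test. Its other two probe sets gave -0.15 and -0.11, Ighv1-54 gave -0.31, Ighv3-6 gave 0.01 and Ighv5-12 gave 0.02. With Ighv14-2 included, 6 of the 9 heavy variable probe sets had every B1 array below every B2 array and 0 the reverse. Such separation downwards was seen in 20.1% of all probe sets and upwards in 12.2%. Replicate by replicate, the median of the 9 was -0.31, -0.18, -0.44 and -0.32 over the 4 array pairs, beside -0.02, 0.03, -0.13 and -0.07 over all probe sets. The median gap between replicates of the 9 was 0.17 in B1 and 0.12 in B2.

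Among heavy constant genes, Ighg3 was higher in B1 on the probe set that passed the test. Probe set 102721_at read 75.9 and 79.1 in B2 and 209.8 and 195.3 in B1, 2.61-fold higher (1.39 ± 0.24, limma adjusted p = 0.0085). The B1 arrays lay at percentile 76.9 and 79.0 and the B2 arrays at 49.9 to 52.3, just above the highest T cell array at 49.2. The call was lost on leaving out any 1 of the 4 B cell arrays, with adjusted p between 0.07 and 0.09 and differences from 1.33 to 1.44. Ighg3 probe set 102722_g_at, 1 of 2 designed on the same record, read 62.1 and 60.5 in B2 and 105.5 and 86.9 in B1. It did not pass the test (0.64 ± 0.20, limma adjusted p = 0.32). Of 25 alternatives it was called in 2, with a replicate block (limma adjusted p = 0.045) and with an offset of 32 (0.026). The 5 remaining Ighg3 probe sets lay between -0.39 and 0.18 and did not follow the difference of 102721_at. They were dim, at 22.6 to 42.7 on the B cell arrays, so their lack of a difference is of limited weight.

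Ighm, which encodes the constant region of IgM, was represented by 16 probe sets, and 2 of them were bright in B cells. Probe set 93584_at read 4802 and 5157 in B2 and 6345 and 8229 in B1 (0.54 ± 0.29, adjusted p = 1). Probe set 93583_s_at read 3946 and 5398 in B2 and 5484 and 8263 in B1 (0.54 ± 0.35, adjusted p = 1). On both, the 2 B1 arrays lay above the 2 B2 arrays, but the difference was less than 2 SE and was not called. Leaving out 1 array moved it between 0.35 and 0.73 on 93584_at and between 0.25 and 0.84 on 93583_s_at, in each case lowest without B1 replicate 2 and highest without B1 replicate 1. The other 14 Ighm probe sets did not exceed 105.7 on any B cell array and differed by -0.43 to 0.20. Only 1 of them was called higher in B than in T cells.

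Igha was not called on any of its 3 single-symbol probe sets. Probe set 100583_at, on the record of Ighv14-2, read 71.2 and 88.5 in B2 and 48.4 and 56.7 in B1 (-0.60 ± 0.61). The wide SE pools all 6 groups, with log2 SDs of 1.46 in NKT, 0.22 in B2 and 0.16 in B1. The same probe set read 185.4 on NKT replicate 1 and 33.9 and 30.6 on the other NKT arrays, so NKT replicate 1 stood apart. The remaining Igha values were -0.09 and -0.07. Across the 27 heavy constant probe sets the medians of the 4 array pairs were -0.04, 0.04, -0.17 and -0.08, with 5 separated upwards and 9 downwards. These medians lay close to the -0.02, 0.03, -0.13 and -0.07 of all probe sets.

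Kappa light chain probe sets showed no called difference between B1 and B2, and 32 of the 35 differed by less than 0.3 in either direction. The median over the class was -0.11, with 9 above and 26 below 0. The 4 array pairs gave medians of -0.06, -0.05, -0.08 and -0.05, beside -0.02, 0.03, -0.13 and -0.07 over all probe sets. Arrays separated upwards on 1 kappa probe set and downwards on 8. These shares, as for the other classes, are to be read beside the 12.2% and 20.1% of all probe sets.

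Probe set 93086_at, whose 5 symbols include the kappa constant gene, was the brightest of all 12422 on each of the 4 B cell arrays. It read 14869 and 14226 in B2 and 15349 and 13760 in B1 (-0.00 ± 0.39). Since it occupied the top rank everywhere, a between-array normalization leaves its level little room to differ, and its near equality is of limited weight. The 5 probe sets that carry the kappa constant symbol ranged from -0.22 to -0.00. Igkv6-23, a kappa variable segment, read 6977 and 7318 in B2 and 6701 and 7427 in B1 on 102156_f_at (-0.02 ± 0.35), with overlapping arrays. The shared SE is wider here than the B cell arrays alone, with log2 SDs of 0.05 in B2 and 0.10 in B1. In CD4T and NKT cells the SDs were 0.55 and 0.60.

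The highest kappa difference belonged to Igkv4-91, the light chain segment known to pair with VH12 in phosphatidylcholine-binding B1 cells. It read 282.3 and 384.9 in B2 and 393.1 and 618.4 in B1 on 94725_f_at (0.58 ± 0.22, adjusted p = 0.67). Both B1 arrays exceeded both B2 arrays, by a narrow gap between the lower B1 and the higher B2 array. The difference was 0.25 without B1 replicate 2 and 0.91 without B1 replicate 1. The other 9 probe sets with an Igkv4 symbol all lay below 0, from -0.30 to -0.00. Igkv15-103 gave 0.28 and 0.21 on 2 probe sets and Igkv2-112 gave 0.12. At the low end Igkv6-14 read 292.5 and 429.3 in B2 and 205.3 and 330.8 in B1 on 101331_f_at (-0.44 ± 0.24, adjusted p = 1), so its arrays overlapped. It was -0.10 without B1 replicate 1 and -0.79 without B1 replicate 2. It was followed by 101616_at, a kappa probe set with 2 symbols, at -0.42, Igkv4-68 at -0.30, Igkv9-120 at -0.29 and an unassigned Igk probe set, 101332_at, at -0.25.

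The lambda class held 2 probe sets. Probe set 93638_s_at, annotated with a lambda constant and a lambda variable symbol, read 447.5 and 194.0 in B2 and 629.6 and 349.7 in B1 (0.67 ± 0.41, adjusted p = 1). Its B2 replicates differed more than the groups did, and in both groups replicate 1, the replicate with the stronger 18S signal, was the higher one. Same-numbered arrays differed by 0.49 and 0.85, and differently numbered ones by 1.70 and -0.36. With a replicate block the probe set was called (adjusted p = 0.036), although 2 arrays a group are too few to show that the numbers pair these samples. The difference was 0.07 without B2 replicate 2 and 1.27 without B2 replicate 1. Iglc1 on 93639_r_at was near 0 (0.02 ± 0.19).

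The T cell groups gave the background against which these levels can be read. In B cells 42 of the 75 members (56.0%) were higher than in the 4 T cell groups, against 13.0% of all probe sets by limma on quantile-normalized values. The 42 comprised 6 heavy variable, 11 heavy constant, 1 mixed, 23 kappa and 1 lambda probe set. By percentile, 32 members (42.7%) stood higher on every B cell array than on every T cell array, against 4.84% of all probe sets. All 4 probe sets called between B1 and B2 were among the 42, and 38 of the 42 were not called there. The other 33 members, which were not called higher in B cells, differed by -0.60 to 0.20 between B1 and B2 and 0 of them were called. The B1 and B2 values enter both comparisons, and a probe set high in 1 B cell group is raised in their mean. Neither count is therefore independent support for the calls between B1 and B2.

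**Figure D3:**
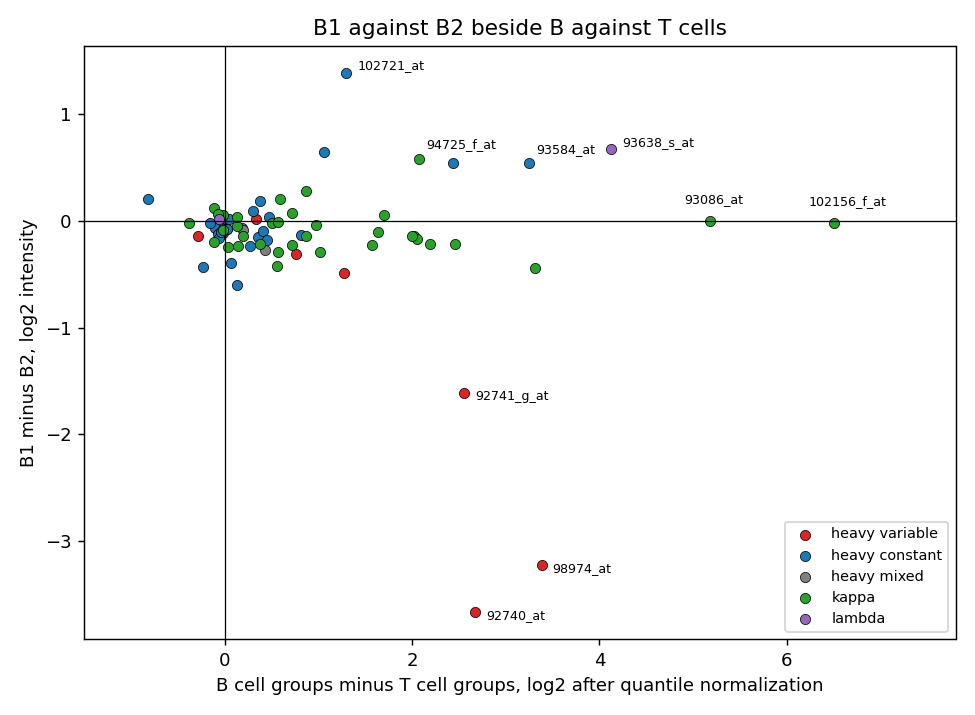
For the 75 immunoglobulin probe sets, the B cell minus T cell difference (log2 after quantile normalization, horizontal) against the B1 minus B2 difference (log2 of the deposited values, vertical), coloured by class. Most points lie along the horizontal zero line, including Igkv6-23 (102156_f_at) at 6.50 and 93086_at at 5.18 above T cells, and the 3 Ighv14-2 probe sets fall well below it.

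The gap to T cells depended on the source of the T cells for the 2 brightest kappa probe sets. On the log2 scale after quantile normalization Igkv6-23 on 102156_f_at stood 4.04 above the splenic and 8.96 above the RTOC T cells, and 93086_at stood 2.55 and 7.81 above them. Igkv6-23 was near the bottom of the RTOC arrays and 93086_at at the top of the B cell arrays, so these sizes are not exact. Other gaps differed less between the 2 sources, with 3.76 and 4.49 for lambda probe set 93638_s_at, 3.05 and 3.57 for Igkv6-14 on 101331_f_at, and 3.15 and 3.61 for Ighv14-2 on 98974_at. Ighm stood 3.33 and 3.17 above T cells on 93584_at and 2.13 and 2.74 on 93583_s_at, and Ighg3 on 102721_at 1.18 and 1.42. Over all T cell groups the median gap was 0.76 for heavy variable, 0.13 for heavy constant and 0.71 for kappa probe sets, beside -0.01 over all probe sets. One member ran the other way, Ighm on 101346_at, which was lower in B cells (-0.82, limma adjusted p = 0.0001) with intensities of 34.3 to 61.1 on every T cell and 43.3 to 59.0 on every B cell array.

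The 2 brightest kappa probe sets and Ighm followed different patterns on the T cell arrays. Probe set 93086_at stood at percentile 97.3 to 99.4 in CD4T and 99.3 to 99.8 in NKT cells, but at 47.3 to 59.1 in the RTOC groups. Igkv6-23 on 102156_f_at was also lower in RTOC, with percentiles of 82.0 to 97.9 in the splenic T cells and 3.9 to 10.5 in RTOC cells. These 2 probe sets thus stood higher in both splenic T cell groups than in the cultured ones, near the middle of the array for 93086_at and near the bottom for 102156_f_at. The median of the kappa class did not show a gap of this size, at percentile 35.4 to 39.1 on the splenic T cell arrays and 31.8 to 36.9 on the RTOC arrays. Among other members, smaller gaps ran both ways. Ighm on 100377_f_at stood at 7.8 to 9.9 in splenic T cells and 12.9 to 32.8 in RTOC. Lambda probe set 93638_s_at stood at 17.0 to 36.8 and 3.6 to 10.3, and Ighv14-2 on 98974_at at 9.1 to 16.6 and 0.9 to 8.5. Ighm on 93584_at, by contrast, stayed at percentile 92.1 to 96.7 on all RTOC arrays and at 93.8 to 96.3 in the splenic T cells, so it was high in all T cell groups. The median percentile of the B cell markers, given above, was also lower in RTOC than in splenic T cells except on the highest CD8aaT array, and their part in these levels was not tested.

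**Figure D4:**
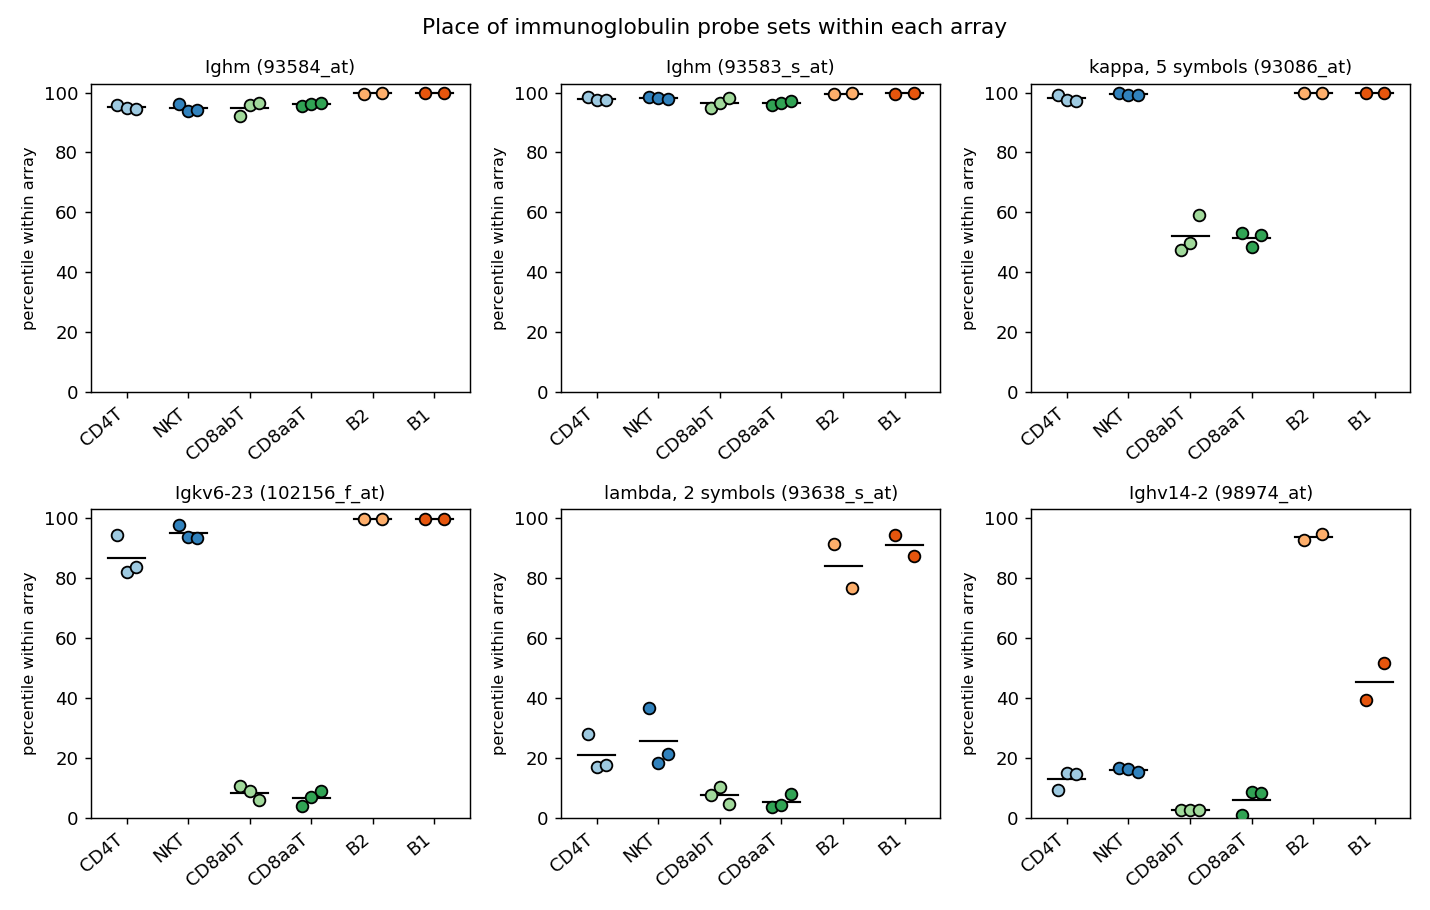
Percentile within its own array (0 to 100, 100 the brightest) of 6 immunoglobulin probe sets, points for arrays and a line for the group mean. Ighm stays above percentile 92 everywhere, kappa probe sets 93086_at and 102156_f_at stand higher in splenic T cells than in both RTOC groups (47.3 to 59.1 and 3.9 to 10.5), and Ighv14-2 on 98974_at is highest in B2, at 92.7 and 94.9.

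Between NKT and CD4T cells, 1 of the 75 members was called, against 1.63% of all probe sets. Igkv6-23 read 986.2, 489.7 and 470.1 in NKT and 401.4, 194.1 and 224.2 in CD4T cells, 2.35-fold higher in NKT (1.23 ± 0.28, limma adjusted p = 0.044). No NKT array fell below a CD4T array, although replicate 1 was highest in both groups. Over 25 alternatives this call held in 9, with adjusted p between 7.3e-05 and 0.35. Without NKT replicate 1 the difference was 0.89 and not called, and the call was also lost without NKT replicate 2, CD4T replicate 2 or 3, CD8abT replicate 2, or any CD8aaT, B2 or B1 array. Probe set 93086_at read 4441, 2294 and 2160 in NKT and 2272, 963 and 968 in CD4T cells (1.13 ± 0.32, adjusted p = 0.15). A replicate block, fitted as an alternative in every comparison, called both kappa probe sets (limma adjusted p = 7.3e-05 and 0.00022) among 4.84% of all probe sets. These p-values are too small if replicates 2 and 3 are not independent. B cell marker sums were 1048 to 1847 in NKT and 829 to 1425 in CD4T cells, and their part in this difference was not tested.

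Of 11 measured genes of antibody secretion 2 were higher in NKT cells, beside the 1.63% of all probe sets called, and 9 did not pass. They were Jchain, which joins IgM and IgA multimers, at 0.77 (adjusted p = 0.0059) and Prdm1, a regulator of plasma cell differentiation, at 0.94 (adjusted p = 0.039). Of the 9 B cell markers, Cd72 rose by 1.90 (adjusted p = 0.016). Dntt, which adds nucleotides at V(D)J junctions, fell by 0.71 (adjusted p = 0.049) as the only one of 9 measured recombination genes to pass.

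Between CD8aaT and CD8abT cells 0 of the 75 members were called by limma, against 0.185% of all probe sets, and 0 reached an unadjusted p under 0.05. The replicate block also called 0 of the members, against 398 of all 12422 probe sets. Differences ran from -0.33 to 0.39 with a median of -0.08.

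Genes that work with immunoglobulins gave the following between B1 and B2. The counts are to be read beside the 0.354% of all probe sets called lower and 0.789% called higher in B1. Of 6 measured receptor partners and surrogate light chain genes 0 rose and 1 fell, Ighd (-1.25 ± 0.18, adjusted p = 0.0017), whose product was part of the gate. Cd79a and Cd79b, the signalling chains of the receptor, gave -0.31 and -0.27 and were not called. Of 11 antibody secretion genes and 9 recombination genes 0 were called, with Jchain at 0.59 (adjusted p = 0.17). Of 9 B cell markers 3 fell, namely Cd72 at -4.05 (adjusted p = 0.00024), the complement receptor Cr2 at -2.06 (3e-05) and the inhibitory co-receptor Cd22 at -0.87 (0.016). Of 11 macrophage markers 1 rose, Lyz2 at 2.29 (adjusted p = 0.013), and of 6 T cell markers 0 were called, with Cd2 at 1.25 (adjusted p = 0.064). The part of other cell types in the immunoglobulin differences was not tested.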

How the data were processed

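The authors deposited 1 linear intensity per probe set and array. The submitters' processing notes name RMA, which removes background, brings arrays to a common distribution and combines the probes of each set. How RMA was set, and on which arrays together, is not given in the sources used here. RMA compresses the differences of dim probe sets, and an intensity by itself is no proof of expression.

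After 66 control probe sets were removed, group means of log2 intensity were estimated for 12422 probe sets over 16 arrays by limma 3.58.1 (R 4.3.3) with moderated variances, 6 groups sharing 1 spread per probe set. A probe set was called at a two-sided Benjamini-Hochberg adjusted p under 0.05 over all probe sets. B against T cells used quantile-normalized values. Symbols came from the platform annotation, and 34 of 35 member symbols were found in RefSeq GRCm38.p6. A planned promoter motif search was not run, because the promoter table held 0 member genes. In the other gene lists the brightest probe set stood for each gene.

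Named were all called, heavy constant, lambda and Igkc members, and of heavy variable and kappa members the 5 highest, 5 lowest and 3 brightest. Mixed probe set 99421_at and the Ighm probe set lower in B cells were picked out after their values were seen. Members and lists were chosen with earlier results of these data known. Replicate numbers were checked by correlating deviations from group means. Same-numbered arrays correlated at 0.60 to 0.76 in both T cell pairs, taken as pairing. In NKT and CD4T cells, replicates 2 and 3 also correlated across numbers (0.57 and 0.67), so the check sets replicate 1 apart and does not show that 2 and 3 pair by number. In B1 and B2 the value was 0.69 from 2 arrays a group, not taken as pairing. The scripts were tested on simulated data. Alternatives were other normalizations, an offset, a filter on dim probe sets, the block, single-symbol members and leaving out arrays.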

Additional observations from a re-analysis of the deposited data

Results flagged for a closer look

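The B1 minus B2 difference was set against the NKT minus CD4T difference and against the CD8aaT minus CD8abT difference by limma contrasts, adjusted over all 12422 probe sets. The 3 Ighv14-2 probe sets were called against both T cell pairs. On 92740_at and 98974_at no T cell array was above percentile 8.6 and 16.6, which leaves a T cell difference little room, so the contrasts largely restate the B1 minus B2 difference. Against the splenic T cell pair the values were -3.73 ± 0.21 for 92740_at (adjusted p = 7.4e-07), -3.34 ± 0.24 for 98974_at (2.5e-06) and -1.70 ± 0.30 for 92741_g_at (0.0093). Against the RTOC pair they were -3.64 (1.6e-06), -3.31 (9.7e-06) and -1.58 (0.026). Ighg3 on 102721_at differed from the RTOC pair by 1.60 ± 0.31 (adjusted p = 0.028) and from the splenic pair by 1.28 ± 0.31, which was not called (adjusted p = 0.074). Over all probe sets, 168 and 91 differed from the splenic and the RTOC pair.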

How the results depend on the processing

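The 4 calls between B1 and B2 became 2 to 4 when any 1 of the 16 arrays was left out, and 6 members were called with the replicate block, which added 102722_g_at (adjusted p = 0.045) and 93638_s_at (0.036). With an offset of 32, 5 members were called, and the one added was 102722_g_at (limma adjusted p = 0.026). Over all probe sets the 142 calls became 214 with an offset of 32 and 50 when only the B1 and B2 arrays entered the fit. They became 353 with the replicate block, 64 to 164 on leaving out 1 array, and 227 without replicate 1 in each group, which was tried only after the data had been seen. The NKT and CD4T call went from 1 to 0 with both quantile normalizations, the offset and the 2 groups fitted alone, to 2 with the replicate block and without the replicate 1 arrays, and to 0 to 2 on leaving out 1 array. B cell against T cell calls numbered 43 in either direction. They became 74 with quantile normalization within pairs, which leaves the pairs at different levels, 14 with dim probe sets left out and 22 at a minimum difference of 1. The dim filter removed probe sets below the median level before the fit, so the members it took out were not tested there. The heavy variable median was -0.28, -0.27 and -0.26 with the quantile normalizations (over all arrays, within pairs) and centring, -0.24 with the offset, -0.49 with dim probe sets left out and -0.38 to -0.25 on leaving out 1 array. The heavy constant median was 0.54 with dim probe sets left out, which keeps fewer members.

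No called value changed sign, and the sign changes below were of uncalled differences near 0. Without the replicate 1 arrays the differences were -0.056 for 101749_at, 0.021 for 102156_f_at, 0.0014 for 97567_f_at, -0.063 for 98765_f_at and 0.041 for 98776_at. The quantile normalizations gave 0.0068 and 0.0017 for 101870_at, 0.057 and 0.053 for 97568_at, and 0.00 for 93086_at, which holds the top rank on the B cell arrays. Centring gave 0.032 for 102156_f_at, 0.050 for 93086_at and 0.034 for 97568_at. Leaving out 1 array gave -0.33 to 0.054 for 101640_f_at, -0.24 to 0.044 for 101745_f_at, -0.11 to 0.14 for 101749_at, -0.38 to 0.25 for 101870_at and -0.086 to 0.15 for 101871_f_at. It gave -0.093 to 0.056 for 102156_f_at, -0.30 to 0.086 for 102585_f_at, -0.080 to 0.078 for 93086_at, -0.16 to 0.20 for 93639_r_at and -0.015 to 0.041 for 96970_at. It gave -0.0060 to 0.15 for 96974_at, -0.34 to 0.053 for 97567_f_at, -0.33 to 0.29 for 97568_at, -0.19 to 0.038 for 97577_f_at, -0.066 to 0.10 for 98765_f_at and -0.35 to 0.024 for 99420_at. The cause was not tested. With 2 arrays in each B cell group the precision is limited.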
